A study of Mus musculus with 18 samples.

Results

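Claudins are the membrane proteins that form the strands of the tight junction, and 8 of them were followed, together with occludin and the scaffold protein ZO-1, in intestinal tissue and tumours of mice. The 10 genes were chosen by name (Cldn1, Cldn2, Cldn3, Cldn4, Cldn7, Cldn8, Cldn15, Cldn23, Ocln and Tjp1) and found on the array through the RefSeq accession of each probe. They were covered by 13 probes, 2 each for Cldn1, Ocln and Tjp1 and 1 for each other gene. Of the 10 genes, 9 passed the filter on dim probes and were tested among 26073 genes, and Cldn1 did not pass.

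Tight junctions seal the space between neighbouring epithelial cells near their luminal surface. Most claudins narrow this paracellular path, while a few line it with pores that let small ions through, so the mixture of claudins in a cell layer sets how leaky it is. Occludin sits in the same strands, and ZO-1 ties the claudins to the actin cytoskeleton from the cytoplasmic side.

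The samples came from male C57BL/6 mice in 6 groups of 3: tumours after azoxymethane (AOM, a carcinogen that induces intestinal tumours in rodents) on a diet that held the herb St. John's wort (SJW) or on a control diet, non-tumour tissue after AOM on either diet, and non-tumour tissue after saline injection on either diet. Each RNA, labelled with Cy5 (red), was hybridised beside one commercial RNA pool of Swiss Webster mice, labelled with Cy3 (green), that held heart, lung, liver, kidney, spleen, thymus, brain, testicle, ovary and embryo but no intestine. A log2 ratio of 0 therefore means as much red as green signal on that probe after normalization within the array, not equal raw intensities. Ratios of different probes were not set against each other. Doses, times and ages are not given in the sources used here, and nothing there states that replicates came from separate animals, so the p-values measure only the spread between these samples.

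The labels place the tissue in the small intestine, while their extraction text names liver. Non-tumour arrays had median red intensities per group of 11687.5 to 81039 for Car1 and 3896 to 33434 for Aqp8, both colonocyte genes, against 114 to 179 for Sis and 89 to 123 for Lct, which mark small intestinal enterocytes. Sis and Lct belong to a small intestine list of 12 genes, all of which passed the filter on dim probes. The mean log2 ratio of this list was between 0.73 and 1.15 in the 4 non-tumour groups. The mean log2 ratio of the liver marker list was between -2.09 and -1.74 in all 6 groups. That of 7 pancreatic acinar genes was 3.65 on SJW AOM replicate 3 and at most 1.43 on the other arrays. The median red intensity over probes was 336.5 to 786.5 on tumour arrays and 133 to 375 on non-tumour arrays. The 6 tumour arrays lay on slides 4 and 5 and were scanned on another day than the 12 non-tumour arrays on slides 1 to 3, so tissue, slide and scan day cannot be told apart in any comparison of tumours. Each of slides 1 to 3 held 1 array of all 4 non-tumour groups. In these bulk samples, fewer epithelial cells and less RNA per cell cannot be told apart.

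RefSeq promoters of build GRCm38.p6 (250 bases before to 50 after the transcription start) matched 8 of the 10 genes, with 10 promoters in all. There was no entry used here for Cldn8 and Cldn23. The 4 promoters below are those of Cldn3, Cldn7 and Ocln, which fell together in the tumours of both diets, and of Cldn4, which is the chromosomal neighbour of Cldn3 and did not fall with it. They are written 5′ to 3′ on the strand of the gene, and capitals mark matches to the motifs described after them.
Cldn3 (chr5:134985964-134986263, plus strand): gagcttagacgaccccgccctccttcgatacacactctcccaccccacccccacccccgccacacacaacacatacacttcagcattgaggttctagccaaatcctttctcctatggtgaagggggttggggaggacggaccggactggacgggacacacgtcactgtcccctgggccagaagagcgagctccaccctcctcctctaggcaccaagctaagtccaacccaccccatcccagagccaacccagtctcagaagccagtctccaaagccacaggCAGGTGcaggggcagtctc
Cldn4 (chr5:134946885-134947184, minus strand): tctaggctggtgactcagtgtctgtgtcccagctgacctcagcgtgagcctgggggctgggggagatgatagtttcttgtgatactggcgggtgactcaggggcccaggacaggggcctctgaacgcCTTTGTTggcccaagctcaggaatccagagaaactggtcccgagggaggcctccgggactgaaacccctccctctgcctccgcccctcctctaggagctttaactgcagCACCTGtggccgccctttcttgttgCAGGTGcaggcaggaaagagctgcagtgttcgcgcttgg
Cldn7, second promoter (chr11:69965171-69965470, plus strand): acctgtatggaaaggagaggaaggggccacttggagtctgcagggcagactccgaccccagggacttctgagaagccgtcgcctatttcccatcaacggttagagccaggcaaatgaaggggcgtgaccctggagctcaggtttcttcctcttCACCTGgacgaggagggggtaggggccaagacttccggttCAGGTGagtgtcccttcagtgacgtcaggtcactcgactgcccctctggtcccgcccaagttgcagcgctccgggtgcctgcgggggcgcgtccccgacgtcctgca
Ocln, first promoter (chr13:100552669-100552968, minus strand): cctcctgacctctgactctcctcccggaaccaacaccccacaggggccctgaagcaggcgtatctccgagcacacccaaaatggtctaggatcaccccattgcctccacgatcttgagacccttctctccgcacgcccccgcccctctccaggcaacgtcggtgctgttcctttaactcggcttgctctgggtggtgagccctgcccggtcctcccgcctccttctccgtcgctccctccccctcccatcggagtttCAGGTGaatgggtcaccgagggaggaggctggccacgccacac

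Cldn3 and Cldn4 point away from each other on chromosome 5, with their starts 39.3 kb apart. The E-box CAGGTG, bound by the Snail and Zeb repressors, was searched on both strands. It was present in 5 of the 10 promoters (4 of the 8 genes), namely the 4 shown and the second promoter of Ocln. Of all 32851 promoters of the same length, 20.2% held it. In Cldn3 it began at base 32 after the start, in Ocln at base 8 after it (at 213 and 68 bases before it in the second promoter), in Cldn4 at 14 bases before the start on the opposite strand and at base 12 after it, and in Cldn7 at 97 bases before the start on the opposite strand and 57 bases before it. The windows of the 2 Ocln promoters overlap, and base 8 after the first start and 213 bases before the second are the same site. A TCF/LEF motif (CTTTG followed by AA, by AT, by TT or by TA, on either strand) was found in Cldn4 alone of the 8 genes, ending in TT and beginning 123 bases before the start, and in 16.9% of all promoters. A CDX motif (TTTAT followed by G or by A, on either strand), read by the intestinal CDX factors, was found in Cldn2 alone, and in 22.8% of all promoters. In Cldn2 it began 244 bases before the start (TTTATG) and, on the opposite strand, 35 bases before it. The latter, TTTATA, reads TATAAA on the strand of the gene. These matches are letters in a window and say nothing about binding in these tissues. The first Cldn7 promoter, not shown, held none of the motifs. The share of G and C bases was 51.3% to 68% in the 10 promoters, against a median of 52.7% over all promoters. The shares of promoters with a motif were not matched for this.

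The first comparison asked how tumours differed from tissue without tumour after AOM, within each diet. Most barrier-forming claudins and occludin were lower in tumours, Cldn8 by far the most, while Cldn4 was higher in tumours of the SJW diet. Of the 9 measured genes, 1 rose and 5 fell on the SJW diet, against a background of 24.6% of all 26073 genes called in either direction (15.4% lower, 9.18% higher). In mice of the control diet 0 rose and 5 fell, with 32% of all genes called (19.3% lower, 12.7% higher). The median log2 change of the 9 genes was -0.59 on the SJW diet and -0.73 on the control diet, against -0.06 and -0.05 over all genes tested. Tumour and AOM arrays did not overlap for 7 of the 9 genes on the SJW diet (1 above, 6 below) and for 7 on the control diet (1 above, 6 below), against 46.2% and 42.7% of all genes. Without Cldn15, for which no direction is given in tumours, the arrays did not overlap for 7 of 8 genes on the SJW diet (1 above, 6 below) and for 6 of 8 on the control diet (1 above, 5 below), and the counts of calls were the same. Calls are limma adjusted p-values under 0.05, Benjamini-Hochberg adjusted over all genes tested, and changes are given with their SE. With arrays centred on their median in place of the intensity-dependent loess curve, 2 of the 9 genes passed on the SJW diet (Cldn4 and Cldn8). On the control diet 3 passed (Cldn3, Cldn8 and Cldn23). The shares of all genes called were then 15.3% on the SJW diet and 21.6% on the control diet, and the median changes were 0.10 and 0.11. These calls split into 2703 higher and 1282 lower on the SJW diet (2394 and 4022 with loess). On the control diet they split into 3777 higher and 1854 lower (3313 and 5020 with loess). Cldn8 was called in both diets under every alternative run.

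**Figure D1:**
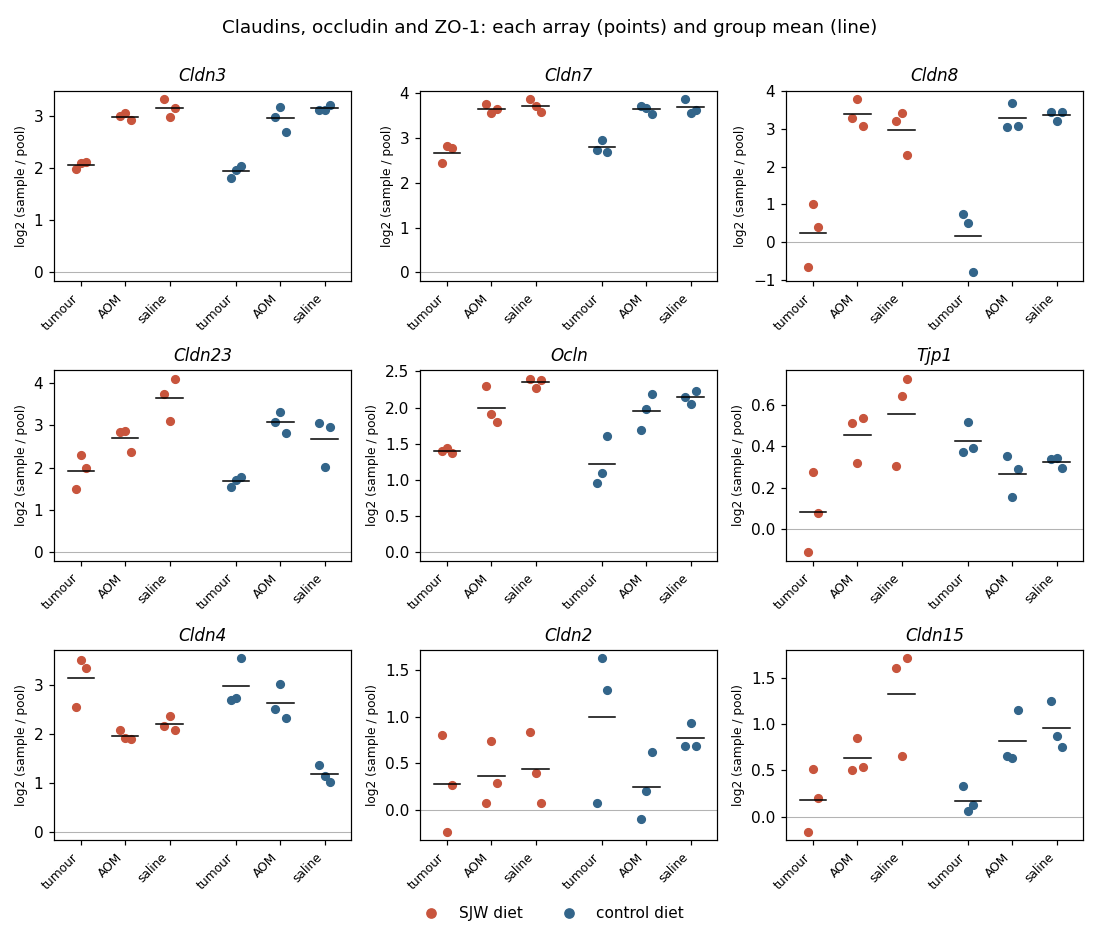
Log2 ratio of sample over pool (vertical axis, one panel per gene, scales differ) for tumour, AOM non-tumour (AOM) and saline tissue of the SJW diet (left, red) and the control diet (right, blue); points are arrays and lines are means of 3. All Cldn8 tumour arrays sit at or below 1.00 and all non-tumour arrays at or above 2.31, whereas Cldn4 is highest in tumours and lowest in saline tissue of the control diet.

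Cldn8, a sealing claudin of the distal intestine that limits sodium back-leak, changed most. Its log2 ratio on the SJW diet was -0.66, 1.00 and 0.41 in tumours, 3.29, 3.78 and 3.08 in AOM non-tumour tissue and 3.20, 3.41 and 2.31 in saline tissue. The control-diet values were 0.75, 0.51 and -0.80 in tumours, 3.05, 3.68 and 3.08 after AOM and 3.42, 3.20 and 3.43 after saline. Every tumour array lay below every non-tumour array, and the 4 non-tumour groups overlapped one another. The log2 change between tumour and AOM non-tumour tissue was -3.13 ± 0.42 on the SJW diet (95% interval -4.03 to -2.23, adjusted p = 8.93e-05), an 8.75-fold lower ratio, and -3.12 ± 0.42 on the control diet (-4.01 to -2.22, adjusted p = 6.79e-05), 8.67-fold lower. Its red signal was 274 to 821.5 in tumours and 711 to 5626.5 in non-tumour tissue, and all of these spots were well above background. The spread among tumours was wide, with an SD of 0.84 on the SJW diet and 0.83 on the control diet.

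Cldn3 and Cldn7, which tighten the barrier throughout the intestine, fell by similar amounts in both diets. Cldn3 read 1.98, 2.09 and 2.11 in SJW tumours, 2.99, 3.05 and 2.91 in SJW AOM tissue and 3.31, 2.98 and 3.14 in SJW saline tissue. With the control diet the Cldn3 values were 1.82, 1.96 and 2.03 in tumours, 2.98, 3.17 and 2.69 after AOM and 3.11, 3.10 and 3.21 after saline. The tumour arrays lay below all others, and within each diet the AOM and saline arrays overlapped. The change from AOM tissue was -0.92 ± 0.13 on the SJW diet (adjusted p = 0.000126, 1.90-fold lower) and -1.01 ± 0.13 on the control diet (adjusted p = 4.51e-05, 2.01-fold lower). With median centring the change on the SJW diet was -0.70 and no longer passed (adjusted p = 0.0754).

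Cldn7, which binds the adhesion protein EpCAM and lies along the lateral membrane as well as in the junction, read 2.44, 2.81 and 2.77 in SJW tumours, 3.76, 3.54 and 3.65 in SJW AOM tissue and 3.85, 3.72 and 3.58 in SJW saline tissue. Control-diet Cldn7 was 2.73, 2.95 and 2.69 in tumours, 3.72, 3.67 and 3.53 after AOM and 3.86, 3.56 and 3.62 after saline. Again no tumour array reached the lowest non-tumour array, and the 4 non-tumour groups overlapped. Cldn7 fell by 0.98 ± 0.13 on the log2 scale on the SJW diet (adjusted p = 0.000107, 1.97-fold) and by 0.85 ± 0.13 on the control diet (adjusted p = 0.000264, 1.80-fold). Neither fall passed with median centring (adjusted p = 0.0545 and 0.0691).

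Cldn23, a claudin of the luminal surface of the colon that strengthens the barrier, read 1.49, 2.29 and 2.00 in SJW tumours, 2.84, 2.87 and 2.36 in SJW AOM tissue and 3.74, 3.09 and 4.10 in SJW saline tissue. Its control-diet values were 1.54, 1.70 and 1.78 in tumours, 3.08, 3.31 and 2.81 after AOM and 3.07, 2.02 and 2.96 after saline. Tumours lay below AOM tissue on every array in both diets, by a narrow gap on the SJW diet (2.29 in the highest tumour, 2.36 in the lowest AOM array). The fall passed the test on the control diet (-1.39 ± 0.29, adjusted p = 0.00206, 2.63-fold lower), while on the SJW diet the change was -0.77 ± 0.29 (95% interval -1.38 to -0.15) with an adjusted p of 0.0663. The difference between these 2 changes was 0.63 ± 0.41, with an interval of -0.25 to 1.50 and an adjusted p of 1. The SJW change passed with the red channel alone (-0.87, adjusted p = 0.0131), without background subtraction (0.0283), with the compared groups alone (0.0387) and without SJW tumour replicate 2 (0.0479).

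Cldn4, a barrier-forming claudin that in kidney works as a partner of Cldn8, went the other way. It read 2.55, 3.52 and 3.34 in SJW tumours, 2.07, 1.92 and 1.89 in SJW AOM tissue and 2.16, 2.36 and 2.09 in SJW saline tissue. Among mice of the control diet it read 2.68, 2.73 and 3.54 in tumours, 2.51, 3.03 and 2.33 after AOM and 1.37, 1.13 and 1.02 after saline. SJW tumours were above both SJW non-tumour groups, control tumours overlapped control AOM tissue, and control saline tissue stood below every other array of the series. The change between tumour and AOM tissue was 1.18 ± 0.26 on the SJW diet (95% interval 0.64 to 1.72, adjusted p = 0.00357), a 2.26-fold rise, and 0.36 ± 0.26 on the control diet (-0.18 to 0.91, adjusted p = 0.296). The change on the SJW diet exceeded that on the control diet by 0.82 ± 0.36, which had an unadjusted p of 0.0388 and an adjusted p of 1. The green signal of this probe was also higher on tumour arrays than the median gene's, by 0.66 on the SJW diet and 0.47 on the control diet on the log2 scale, and its red signal by 1.95 and 0.92. With the red channel alone the control change passed (0.93, adjusted p = 0.024).

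Cldn2 forms pores for cations and water, chiefly in crypts. It read 0.80, -0.23 and 0.26 in SJW tumours, 0.07, 0.74 and 0.29 in SJW AOM tissue and 0.84, 0.39 and 0.07 in SJW saline tissue. Values of the control diet were 0.07, 1.62 and 1.28 in tumours, -0.10, 0.20 and 0.62 after AOM and 0.69, 0.93 and 0.69 after saline. Tumour arrays overlapped AOM arrays in both diets, the control AOM arrays lay just below the control saline arrays (0.62 against 0.69), and the spread was widest among control tumours, with an SD of 0.81. The change was -0.09 ± 0.35 on the SJW diet (adjusted p = 0.88) and 0.75 ± 0.35 on the control diet (95% interval 0.01 to 1.49, adjusted p = 0.111). Without replicate 1 of the control tumours, the sample at 0.07, the control change was 1.21 with an adjusted p of 0.00823, so 1 array decided whether Cldn2 passed.

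Cldn15, the main cation pore of the small intestine, read -0.16, 0.51 and 0.21 in SJW tumours, 0.51, 0.85 and 0.54 in SJW AOM tissue and 1.61, 0.65 and 1.72 in SJW saline tissue. The control diet gave 0.33, 0.06 and 0.12 in tumours, 0.65, 0.64 and 1.15 after AOM and 1.26, 0.88 and 0.75 after saline. Tumours were lowest in both diets, and SJW tumours met SJW AOM tissue at 0.51. Neither change from AOM tissue passed the test (-0.45 ± 0.25, adjusted p = 0.209, on the SJW diet; -0.64 ± 0.25, adjusted p = 0.063, on the control diet). The reference channel moved with this result. The green signal of the Cldn15 probe was 3817 to 7676.5 on tumour arrays and 651 to 3383 on non-tumour arrays, although the same pool was hybridised on all of them, and its red signal was 5977 to 17157.5 on tumour arrays and 817.5 to 7617.5 on non-tumour arrays. Relative to the median gene, its normalised green signal was 2.49 higher in tumours than in AOM tissue on the SJW diet, a rise above that of 99.5% of genes, and 1.78 higher on the control diet, above that of 99.2%. With the red channel alone the Cldn15 change was 2.11 on the SJW diet (adjusted p = 0.00582) and 1.23 on the control diet (adjusted p = 0.0846), both opposite in sign to the ratio, so no direction is given for Cldn15 in tumours. Among the other 8 genes, the normalised green signal relative to the median gene differed by -0.41 to 0.66.

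**Figure D2:**
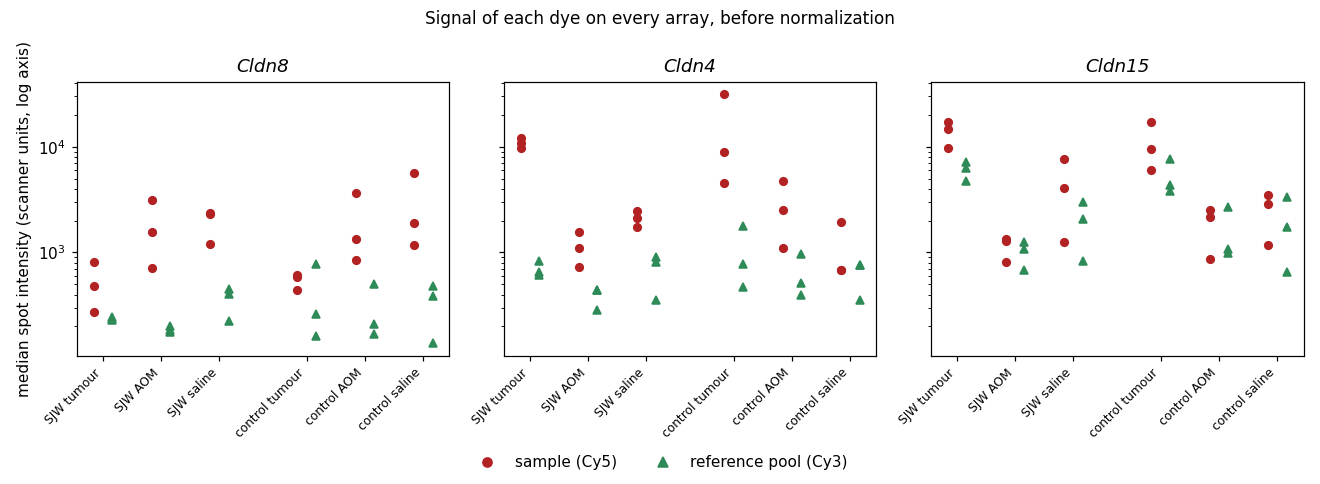
Median spot intensity (log axis, scanner units) of the sample dye (circles) and the pool dye (triangles) for Cldn8, Cldn4 and Cldn15 on each of the 18 arrays before normalization, by group. For Cldn15 the pool signal itself is higher on the tumour arrays (3817 to 7676.5) than on the non-tumour arrays (651 to 3383), while for Cldn8 the sample signal is low in tumours.

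Ocln encodes occludin, a strand protein with 4 membrane passes that regulates barrier turnover. It read 1.40, 1.44 and 1.37 in SJW tumours, 2.29, 1.91 and 1.80 in SJW AOM tissue and 2.40, 2.27 and 2.38 in SJW saline tissue. Control-diet Ocln was 0.95, 1.10 and 1.61 in tumours, 1.69, 1.98 and 2.18 after AOM and 2.15, 2.06 and 2.23 after saline. Tumours lay below non-tumour tissue on every array of their diet. Ocln fell by 0.59 ± 0.17 on the SJW diet (adjusted p = 0.0195, 1.51-fold) and by 0.73 ± 0.17 on the control diet (adjusted p = 0.00444, 1.66-fold). A dimmer Ocln probe changed by -0.23 ± 0.23 on the SJW diet (adjusted p = 0.501) and by -0.67 ± 0.23 on the control diet (adjusted p = 0.035), so the 2 probes disagreed on the SJW diet about the call but not about the sign. Among 11 other settings of processing and model the fall passed in 7 on the SJW diet and in 8 on the control diet. Those that missed included the log ratio of the scanner software (adjusted p = 0.0512 and 0.0779) and median centring (0.471 and 0.345). The fall on the SJW diet was also lost without SJW AOM replicate 1 (0.0976), SJW tumour replicate 1 (0.0514) or SJW tumour replicate 3 (0.0591).

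Tjp1 encodes ZO-1, the scaffold that clusters claudins through its PDZ domains. It read -0.11, 0.28 and 0.08 in SJW tumours, 0.51, 0.32 and 0.54 in SJW AOM tissue and 0.31, 0.64 and 0.73 in SJW saline tissue. Control-diet values were 0.37, 0.52 and 0.39 in tumours, 0.35, 0.16 and 0.29 after AOM and 0.34, 0.34 and 0.30 after saline. SJW tumours were below AOM tissue on every array, and control tumours were above it on every array. The change was -0.37 ± 0.13 on the SJW diet (adjusted p = 0.0485, 1.30-fold lower) and 0.16 ± 0.13 on the control diet (95% interval -0.12 to 0.44, adjusted p = 0.377). The changes differed between diets by -0.53 ± 0.19, with an unadjusted p of 0.0112 and an adjusted p of 1. The second Tjp1 probe gave the opposite signs, 0.20 on the SJW diet (adjusted p = 0.428) and -0.18 on the control diet (adjusted p = 0.444). Among 11 other settings of processing and model the SJW call held in only 4, with changes of -0.75 to 0.11 and adjusted p-values up to 0.898. The replicate block was among the settings that lost it (adjusted p = 0.0613). It was also lost without any 1 of 4 of its 6 arrays (adjusted p = 0.106 to 0.184 without them).

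Cldn1, a barrier claudin best known from skin, was at the edge of detection. Both of its probes failed the filter, with red intensities of 74 to 164 and 70 to 115.5 over the 18 arrays. In a fit of all probes without the filter it was not called in any comparison, with adjusted p-values of 0.204 to 1.

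**Figure D3:**
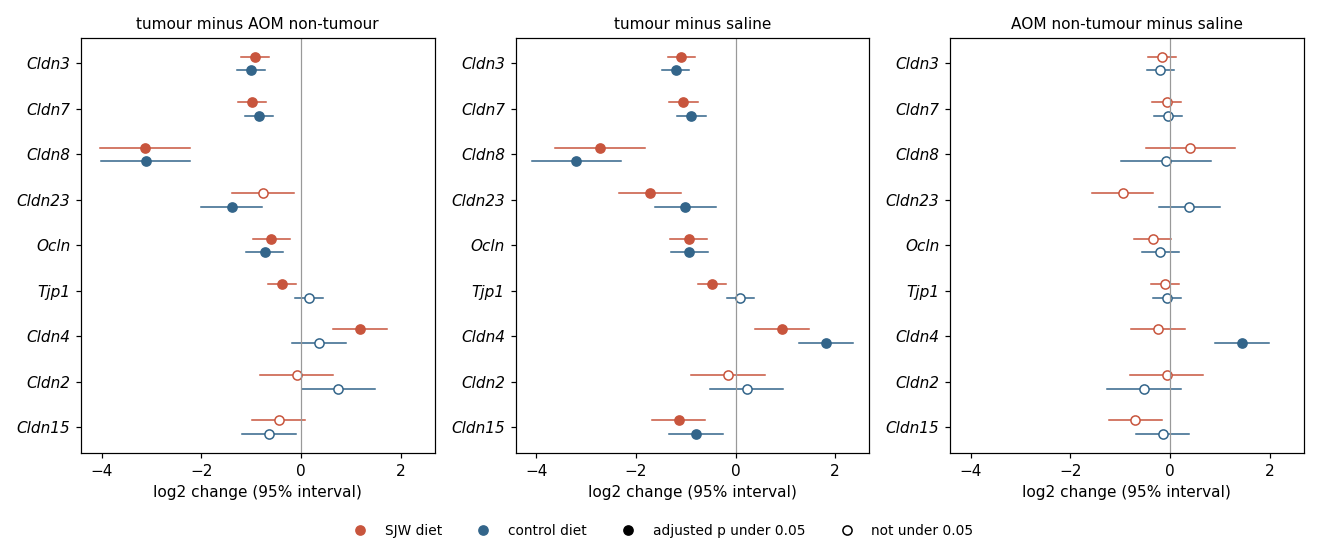
Log2 change of each measured gene (horizontal axis, points with 95% intervals) for tumour minus AOM non-tumour tissue, tumour minus saline tissue and AOM non-tumour minus saline tissue, on the SJW diet (red) and the control diet (blue); filled points have a limma adjusted p under 0.05. Cldn3, Cldn7, Cldn8 and Ocln lie left of 0 in both tumour panels and both diets, and the only filled point of the AOM panel is Cldn4 on the control diet at 1.45.

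Set against saline tissue, a comparison that uses the same tumour arrays, 1 gene rose and 7 fell on the SJW diet (36.2% of all genes called, 22.5% lower and 13.7% higher), and 1 rose and 6 fell on the control diet (32.9% called, 19.6% lower and 13.2% higher). Arrays of the groups did not overlap for 8 genes on the SJW diet (1 above, 7 below) and for 8 on the control diet (2 above, 6 below), against 50.5% and 43.3% of all genes. Both counts of falls include Cldn15, whose sign turned in the red channel alone, and without it 1 of 8 genes rose and 6 fell on the SJW diet and 1 rose and 5 fell on the control diet. The median change of the 9 genes was -1.05 on the SJW diet and -0.88 on the control diet, against -0.07 and -0.04 over all genes. Cldn4 was the gene that rose, by 0.93 ± 0.26 on the SJW diet (adjusted p = 0.00962, 1.91-fold) and by 1.81 ± 0.26 on the control diet (adjusted p = 7.01e-05, 3.52-fold). The SJW rise was lost without SJW tumour replicate 2 (adjusted p = 0.0514). The sealing claudins again lay lower in tumours. Cldn8 fell by 2.72 ± 0.42 on the SJW diet (adjusted p = 0.000137, 6.60-fold) and by 3.20 ± 0.42 on the control diet (adjusted p = 3.84e-05, 9.17-fold). Cldn23 fell in both diets here, by 1.72 ± 0.29 on the SJW diet (adjusted p = 0.000294) and by 1.00 ± 0.29 on the control diet (adjusted p = 0.0153). The control fall of Cldn23 was lost without control saline replicate 1 (adjusted p = 0.0714) or replicate 3 (adjusted p = 0.0584). Cldn3, Cldn7 and Ocln fell by 0.88 to 1.20 in both diets, with adjusted p-values of at most 0.000768, although with median centring Ocln passed in neither diet (0.0899 and 0.281) and Cldn7 not on the control diet (0.395). By its brighter probe Tjp1 fell on the SJW diet (-0.48 ± 0.13, adjusted p = 0.00993, lost without SJW saline replicate 3 or SJW tumour replicate 1 at 0.0546 and 0.0535). That call held in 8 of 11 other settings. On the control diet this probe changed by 0.10 ± 0.13 (adjusted p = 0.59), and by 0.75 with median centring (0.015). The dimmer Tjp1 probe changed by -0.21 ± 0.17 on the SJW diet (adjusted p = 0.36) and by -0.43 ± 0.17 on the control diet (0.0687). The Cldn15 ratio was lower by 1.14 ± 0.25 on the SJW diet (adjusted p = 0.0023) and by 0.79 ± 0.25 on the control diet (adjusted p = 0.0251), both with the opposite sign in the red channel alone (1.59 and 1.17). The control call of Cldn15 was lost without control saline replicate 1 (adjusted p = 0.102), control tumour replicate 2 (0.0719) or control tumour replicate 3 (0.0669). Cldn2 changed by -0.15 ± 0.35 on the SJW diet and 0.22 ± 0.35 on the control diet, with intervals of -0.89 to 0.58 and -0.51 to 0.96.

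The next comparison asked how tissue without tumour differed between AOM and saline injection. Of the 9 genes by their brightest probe, only Cldn4 on the control diet passed the test. Thus 0 genes were called on the SJW diet, with 1.14% of all genes called (0.656% higher, 0.479% lower), and 1 rose and 0 fell on the control diet, with 0.583% of all genes called (0.456% higher, 0.127% lower). Without overlap between the groups were 2 genes on the SJW diet (both below) and 2 on the control diet (1 above, 1 below), against 28.6% and 17.8% of all genes. On the SJW diet 5039 genes had an unadjusted p under 0.05, and limma's count of 0 members was also found with every other setting but the mean of a gene's probes (1) and the leaving out of SJW saline replicate 2 (2). Cldn4 in control tissue was 2.51, 3.03 and 2.33 after AOM and 1.37, 1.13 and 1.02 after saline, a rise of 1.45 ± 0.26 (95% interval 0.91 to 1.99, adjusted p = 0.0205, 2.73-fold). Within slides 1, 2 and 3 the rise was 1.15, 1.90 and 1.31. On the SJW diet the Cldn4 change was -0.25 ± 0.26 (-0.79 to 0.30, adjusted p = 0.611), and -0.09, -0.45 and -0.20 within the same slides.

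The control rise of Cldn4 sat close to the threshold. It was lost without either of control saline replicates 1 and 2 (adjusted p = 0.0711 and 0.0751) or control AOM replicates 1 and 2 (0.0638 and 0.0881), with the log ratio of the scanner software (0.0509), with the deposited table (0.0516) and with the compared groups alone (0.112), always with the same sign. The pool signal of the Cldn4 probe, relative to the median gene, was 0.36 higher in control AOM tissue than in control saline tissue, and the sample signal 1.83 higher. The mean log2 ratio of 10 smooth muscle genes was 0.88 to 2.38 on control AOM arrays and -1.13 to 0.82 on control saline arrays. That of 8 fibroblast and matrix genes was -0.92 to -0.48 on control AOM arrays and -2.15 to -1.53 on control saline arrays, and that of 10 colon genes 3.04 to 3.61 on control AOM arrays and 3.96 to 4.11 on control saline arrays. The part of these lists in the Cldn4 result was not tested. The difference of the AOM change between the diets was -1.70 ± 0.36 for Cldn4 (SJW minus control, 95% interval -2.47 to -0.93), with an unadjusted p of 0.000256 and an adjusted p of 0.476 over all genes, of which 0 were called and 2435 had an unadjusted p under 0.05. Within slides 1 to 3 that difference was -1.24, -2.35 and -1.51.

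The other 8 genes were not called after AOM. Cldn23 changed by -0.95 ± 0.29 on the SJW diet (adjusted p = 0.102), with all AOM arrays below all saline arrays, and by 0.39 ± 0.29 on the control diet (adjusted p = 0.614). The diets differed in this change by -1.34 ± 0.41 (unadjusted p = 0.00507, adjusted p = 0.476). Cldn15 changed by -0.70 ± 0.25 on the SJW diet (adjusted p = 0.154) and by -0.15 ± 0.25 on the control diet (adjusted p = 0.858). Without SJW saline replicate 2, whose Cldn23 and Cldn15 were lowest of its group, both passed on the SJW diet (Cldn23 -1.23, adjusted p = 0.0441, and Cldn15 -1.03, adjusted p = 0.0262). Cldn3, Cldn7, Cldn8 and Tjp1 changed by at most 0.41 in size in either diet, and their intervals reached from -0.49 to 1.30 for Cldn8 on the SJW diet and from -0.98 to 0.82 on the control diet. The brighter Ocln probe changed by -0.35 ± 0.17 on the SJW diet (adjusted p = 0.276), whereas the dimmer one fell by 1.27 ± 0.23 (adjusted p = 0.0232).

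Diet was compared directly in each tissue. No gene of the array passed the adjusted threshold in saline tissue, AOM tissue or tumours (0% called each), and 2787, 829 and 1565 of 26073 genes had an unadjusted p under 0.05. Leaving out 1 array gave 291 calls in saline tissue (control saline replicate 3) or 204 (SJW saline replicate 1) and at most 8 in tumours, and the log ratio of the scanner software gave 2 in saline tissue, with 0 of the 9 genes among them. Cldn4 in saline tissue did not overlap between the diets. It was 2.16, 2.36 and 2.09 on the SJW diet, against 1.37, 1.13 and 1.02 on the control diet, a change of 1.03 ± 0.26 (95% interval 0.49 to 1.57, unadjusted p = 0.000994, adjusted p = 0.134). Within slides 1 to 3 the Cldn4 difference was 0.79, 1.24 and 1.07. Cldn23 was likewise above the control diet on every saline array (0.96 ± 0.29, adjusted p = 0.231, and 0.67, 1.07 and 1.15 within slides), as was Ocln (0.21 ± 0.17, adjusted p = 0.672). These 3 of 9 genes had groups that did not overlap, against 14.1% of all genes.

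After AOM the order of the diets for Cldn4 was the reverse, with 2.07, 1.92 and 1.89 on the SJW diet and 2.51, 3.03 and 2.33 on the control diet. This change of -0.67 ± 0.26 (unadjusted p = 0.0194, adjusted p = 1) did not pass, was the only one of 9 without overlap (9.12% of all genes), and was -0.45, -1.11 and -0.44 within slides 1 to 3. In tumours Cldn4 differed by 0.15 ± 0.26 between the diets (interval -0.39 to 0.69). Tjp1 in tumours was lower on the SJW diet on every array by its brighter probe (-0.35 ± 0.13, unadjusted p = 0.0186, adjusted p = 0.777), the only one of 9 without overlap there (10.5% of all genes). The dimmer Tjp1 probe had the opposite sign (0.12 ± 0.17, adjusted p = 0.966). Cldn2 differed by -0.72 ± 0.35 (adjusted p = 0.836). For the sealing claudins the intervals of the diet difference in tumours were narrow, -0.16 to 0.40 for Cldn3 and -0.41 to 0.16 for Cldn7, and wide for Cldn8 (-0.80 to 0.99).

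Ordered by mean log2 ratio ± SD (n = 3 each), Cldn4 stood at 3.14 ± 0.51 in SJW tumours, 2.99 ± 0.48 in control tumours, 2.62 ± 0.36 in control AOM tissue, 2.20 ± 0.14 in SJW saline tissue, 1.96 ± 0.10 in SJW AOM tissue and 1.17 ± 0.18 in control saline tissue. The first 4 groups overlapped their neighbours among themselves, the SJW saline and SJW AOM arrays did not overlap but their difference did not pass (adjusted p = 0.611), and the last step was larger than the SDs of both its groups. Cldn23 ran from 3.64 ± 0.51 in SJW saline tissue through 3.07 ± 0.25 in control AOM, 2.69 ± 0.29 in SJW AOM and 2.68 ± 0.57 in control saline tissue to 1.93 ± 0.41 in SJW and 1.68 ± 0.12 in control tumours. The step to the tumours was larger than the SDs, although 1 control saline array (2.02) lay below the highest SJW tumour (2.29), and the steps among the non-tumour groups were of their size. For Cldn3 the 4 non-tumour groups lay between 2.95 ± 0.24 and 3.15 ± 0.17 and the tumours at 2.06 ± 0.07 on the SJW diet and 1.94 ± 0.11 on the control diet. For Cldn7 they lay between 3.64 ± 0.10 and 3.72 ± 0.14, with tumours at 2.67 ± 0.21 and 2.79 ± 0.14. Ocln ranged over 1.95 ± 0.25 to 2.35 ± 0.07 without tumour and stood at 1.41 ± 0.04 in SJW and 1.22 ± 0.34 in control tumours.

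Other junction genes were followed by lists, in the comparison of tumour with AOM tissue, where 24.6% of all genes were called on the SJW diet and 32% on the control diet. Among 11 other measured claudins 1 rose and 3 fell on the SJW diet (36.4% called, median -0.10) and 0 rose and 3 fell on the control diet (27.3% called, below the share of all genes, median -0.23). One of the 11, Cldn13, passed the filter through the tumours alone and was not called, and without it the medians of the other 10 were -0.33 and -0.42. The fallers were Cldn14, a claudin of the inner ear and kidney (-1.46 on the SJW diet, -1.29 on the control diet), Cldn11, the claudin of myelin and Sertoli cells (-1.26 and -1.14, above background on 2 of 3 control AOM arrays), and Cldn12 (-0.59 and -0.61). Cldn6, a claudin of embryonic epithelia, rose on the SJW diet (1.21, adjusted p = 0.00237), where it was well above background on 2 of 3 AOM arrays.

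Of 12 other membrane proteins of the tight junction, 0 rose and 3 fell on the SJW diet (25% called, near the 24.6% of all genes, median -0.24) and 1 rose and 6 fell on the control diet (58.3% called, against 32%, median -0.48). The angulins Ildr1 and Ildr2, which mark the corners where 3 cells meet, were among the fallers of both diets (Ildr1 fell by 1.00 on the SJW diet and 1.97 on the control diet, Ildr2 by 1.69 and 1.30). Igsf5 fell as well (-0.58 and -1.08). The polarity protein Crb3 fell on the control diet (-1.10), and Esam, an adhesion molecule of endothelium that is also on the endothelial list, rose there (0.77). Of 24 plaque and polarity proteins, 2 rose and 5 fell on the SJW diet (29.2% called, near the 24.6% of all genes, median -0.18) and 3 rose and 9 fell on the control diet (50% called, against 32%, median -0.16). The largest falls were those of the kinase Prkcz (-1.18 on the SJW diet, -1.33 on the control diet) and the scaffolds Magi3 (-0.98 and -1.22) and Magi1 (-0.72 and -1.07). Pard3, a polarity scaffold, rose in both diets (0.58 and 0.51), as did Amot (0.63 and 0.58), and Tjap1 rose on the control diet (0.52).

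Adherens junctions and desmosomes lie below the tight junction. Of their 14 genes 1 rose and 5 fell on the SJW diet (42.9% called, against 24.6% of all genes, median -0.26) and 0 rose and 8 fell on the control diet (57.1% called, against 32%, median -0.57). Perp, a desmosomal protein, fell by 1.10 on the SJW diet and 1.56 on the control diet, Nectin3 by 1.25 and 1.30, and Cdh1, which encodes E-cadherin, by 0.79 and 0.92. Ctnnb1, encoding beta-catenin, rose on the SJW diet (0.75, adjusted p = 0.000312). Among 16 genes listed as regulators of claudins, 1 rose and 7 fell on the SJW diet (50% called, against 24.6% of all genes, median -0.57) and 1 rose and 10 fell on the control diet (68.8% called, against 32%, median -0.80). The transcription factors Klf4 (-2.25 on the SJW diet, -2.66 on the control diet), Cdx2 (-2.03 and -2.21) and Cdx1 (-2.01 and -2.05) fell. The repressor Snai1 rose (0.93 and 0.96). The part of these factors in the changes of the claudins and Ocln was not tested. Epcam and Elf3 are on both the regulator and the epithelial list, and Cdh1 is on the list of adherens junctions and the epithelial list.

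**Figure D4:**
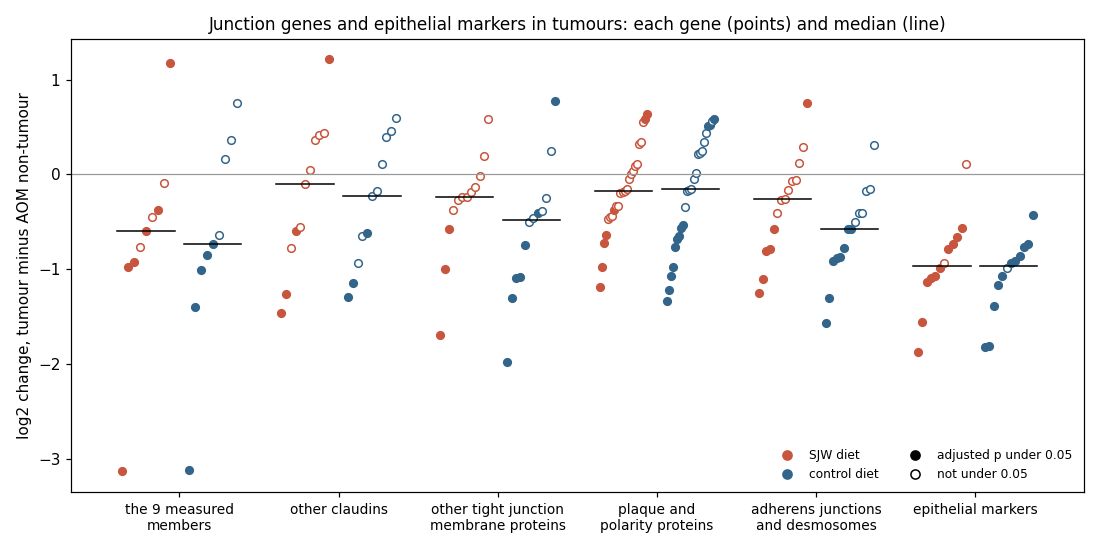
Log2 change between tumour and AOM non-tumour tissue (vertical axis) of every measured gene of 6 lists, on the SJW diet (left of each pair, red) and the control diet (right, blue); filled points have a limma adjusted p under 0.05 and black lines are medians. The medians of the 9 measured genes are -0.59 and -0.73, those of the other claudins -0.10 and -0.23, and those of the epithelial markers -0.96 in both diets.

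Between tumour and AOM tissue 24.6% of all genes were called on the SJW diet and 32% on the control diet (15.4% and 19.3% lower). Most epithelial markers fell in tumours. Of 12 such genes 0 rose and 10 fell on the SJW diet and 0 rose and 11 fell on the control diet, with medians of -0.96 in both, among them Krt8 (-1.56 on the SJW diet, -1.81 on the control diet), Vil1 (-1.09 and -1.16) and Epcam (-0.66 and -0.86). The mean log2 ratio of the list was 2.14 to 2.65 on SJW tumour arrays, 2.12 to 2.73 on control tumour arrays and 3.26 to 3.60 on the 12 non-tumour arrays, and all 12 were well above background in red on every array. Of 10 smooth muscle genes 8 fell on the SJW diet (median -2.34) and 9 on the control diet (median -2.94), with list means of -1.07 to -0.63 on SJW tumour arrays, -1.33 to -0.89 on control tumour arrays, 0.29 to 2.57 on SJW AOM arrays and 0.88 to 2.38 on control AOM arrays. Synpo2 of that list was well above background on 2 of 3 arrays in both tumour groups, and without it 7 of 9 fell on the SJW diet and 8 of 9 on the control diet. Of 10 colon markers 7 fell on the SJW diet (median -2.06, range -4.90 to -0.53) and 8 on the control diet (median -2.36, range -6.01 to -0.12), among them Car1 (-3.23 and -3.12), Car4 (-4.90 and -6.01) and Aqp8 (-4.17 and -5.72). The mean log2 ratio of the colon list was -0.20 to 1.09 on SJW tumour arrays, 0.13 to 0.59 on control tumour arrays, 2.60 to 3.36 on SJW AOM arrays and 3.04 to 3.61 on control AOM arrays. Slc26a3 of the colon list was well above background on 2 of 3 arrays in both tumour groups, and without it 6 of 9 fell on the SJW diet and 7 of 9 on the control diet. Of 8 fibroblast and matrix genes 2 rose and 0 fell on the SJW diet (25% called, near the 24.6% of all genes). On the control diet 4 rose and 2 fell (75% called, against 32%). The part of any of these lists in the changes of the claudins was not tested. Cldn3, Cldn7 and Ocln changed by amounts within the range of the epithelial markers in both diets, and Cldn8 by more than any of those but within the range of the colon markers.

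Between AOM and saline tissue the 10 smooth muscle genes had median changes of 1.66 on the SJW diet and 1.93 on the control diet with 0 called, while the epithelial list had medians of -0.07 and 0.05. None of the other claudins, membrane proteins, plaque proteins or adherens junction genes was called after AOM in either diet. Of the 16 regulators 1 was called (6.25%, against 1.14% of all genes), the repressor Zeb1 on the SJW diet (1.21, adjusted p = 0.0303).

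How alike the genes ran over the 18 arrays was described by the root mean square difference of their log2 ratios after each gene was centred on its own mean, with groups, slides and reference pool in common. Among the 9 genes the closest pair was Cldn3 and Cldn7 (0.170), followed by Cldn3 and Ocln (0.238) and Cldn7 and Ocln (0.263), and the farthest was Cldn4 and Cldn8 (2.06). Among all 16219 other genes with a usable symbol, Cldn8 was nearest to Scnn1a (0.391), which encodes a subunit of the epithelial sodium channel of the distal gut and kidney, then to Itih5 (0.412) and Clic5 (0.436). Ocln was nearest to a claudin outside the 10 genes, Cldn12 (0.137), then to Aldh16a1 (0.149) and Usp12 (0.156). Cldn3 was nearest to Sirt3, Cox7a2 and Tmem127 (0.133 to 0.136), and Cldn7 to Ndufb9, Cog2 and Tmem41a (0.115 to 0.137). The nearest genes of Cldn4 were Ptgr1 (0.353), Vill (0.366) and Mmp14 (0.377). The nearest genes of Cldn23 were Grpr, Tmco3 and Glt28d2 (0.216 to 0.251), those of Cldn15 Mpst, Spata2 and Myo19 (0.202 to 0.208), those of Cldn2 Rad50, Shmt1 and Xrcc5 (0.232 to 0.311), and those of Tjp1 Clec18a, Armcx5 and Zcchc8 (0.143 to 0.148, beside an SD of 0.191 for Tjp1 itself over the arrays).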

How the data were processed

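Gene expression was measured on 18 two-colour Agilent arrays, grouped by the labels, with no dye swap. Per the file headers, the authors read the arrays with Agilent Feature Extraction (version 10.10.1.1, protocol GE2_1010_Sep10), whose array annotation is on mm9. The deposited intensity of a spot is the median over its pixels, given for spot and local background in both dyes. The deposited log10 ratio (red over green) comes from signals that the software had background-subtracted and dye-normalized, per the file headers. The deposited log2 values of the series matched the log2 ratio of the scanner's processed signals on every array (r at least 0.99997), so their scale and direction are known, and their columns were not centred (median 0.160 on control saline replicate 1). Of the 9 measured members, 6 had rows among them.

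Background was corrected with normexp (offset 50), log2 ratios were normalised within arrays by loess with control spots at weight 0, spots with a population outlier flag (0.27% to 0.505%) were dropped, and spots of a probe averaged. A probe was kept if some group had it well above the red background on its 3 arrays (34081 of 41174 probes). The brightest kept probe stood for a gene, which gave 26073 genes. Names came from RefSeq accessions, through annotation of GRCm38.p6 used for names and promoters. A limma 3.58.1 model (R 4.3.3, with data.table at version 1.17.8) fitted to the 18 arrays (12 residual degrees of freedom) gave 11 comparisons, each with Benjamini-Hochberg adjustment over all genes and a threshold of 0.05. The fitting code was tested on simulated data. The number of arrays limits the precision. Red signal over background was 5.24 to 12.2 on tumour arrays and 2.08 to 5.92 on the others.

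Members and gene lists were chosen with earlier results of these data known. All members are named, and of each other list the genes that passed, at most 3 rises and 3 falls, with up to 3 markers of a marker list and the 3 genes most like each member. Replicate numbers follow the slides of the non-tumour arrays. Same-numbered non-tumour samples deviated together in 8 of 18 pairs (correlation over 0.1, range -0.35 to 0.41), against 11 of 36 pairs of different numbers. Same-numbered tumour and AOM samples correlated at 0.07, -0.07 and -0.02 on the SJW diet and 0.32, -0.33 and -0.31 on the control diet. The numbers were not treated as pairs. Alternatives covered normalization, background, reference channel, deposited values, filter, probes, slide, replicate and reference-brightness blocks, the groups fitted and single arrays.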

Additional observations from a re-analysis of the deposited data

How the results depend on the processing

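Of the 9 measured genes, 6 were called between tumour and AOM tissue on the SJW diet and 5 on the control diet. Counts were 8 and 7 between tumour and saline tissue, and 0 and 1 between AOM and saline tissue. The shares of all genes called were 24.6% and 32%, 36.2% and 32.9%, and 1.14% and 0.583%. With median centring the counts for tumour against AOM tissue became 2 and 3 (15.3% and 21.6% of all genes called). Those for tumour against saline tissue became 5 and 4 (26% and 36.8% of all genes). The deposited table, which held 6 of the genes, gave 3 and 3 against AOM tissue (22.7% and 28.3% of all its genes called). It gave 5 against saline tissue on the SJW diet (33.6%) and 0 for AOM on the control diet (1.46%). For AOM on the control diet the scanner's log ratio (1.49% of all genes) and the compared groups alone (0.0268%) gave 0 too. The mean of a gene's probes gave 1 for AOM on the SJW diet (Ocln, -0.81, adjusted p = 0.0467), with 1.41% of all genes called. Leaving out single arrays gave 0 to 1 for AOM on the control diet and 0 to 2 on the SJW diet. Among the tumour comparisons, the sign turned for Cldn15 with the red channel alone (2.11 and 1.23 against AOM tissue on the SJW and control diets, 1.59 and 1.17 against saline tissue) and with median centring (0.079 against saline tissue on the control diet). For Tjp1 it turned with the deposited table, which lists another Tjp1 probe (0.11 against AOM tissue on the SJW diet). On the control diet the Tjp1 change ranged from -0.13 to 0.46 against AOM tissue over the other settings. Against saline tissue that range was -0.47 to 0.75. Other changes near 0 turned sign too. With the replicate number as a block the counts were 5 and 5, 8 and 7, and 0 and 1, and Tjp1 on the SJW diet was the only call that changed. The shares of all genes called with this block were 23.5% and 30.7%, 35% and 31.7%, and 1.14% and 0.518%. Leaving out Cldn15, chosen after seeing the data, gave 6 and 5 for tumour against AOM tissue and 7 and 6 for tumour against saline tissue. Slide as a random block had a correlation of -0.027 and lost no tumour call. It cannot separate tissue from slide, since no slide held both tumour and non-tumour arrays.

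Over all genes, median centring called 3985 genes against AOM tissue on the SJW diet (6416 with loess), and the compared groups alone called 5507 on the control diet (8333) and 5527 against saline tissue (8567). Higher and lower calls were 3394 and 3038 (SJW) and 4848 and 3246 (control) against AOM tissue with the scanner's log ratio, 2699 and 2515 (SJW) and 3854 and 2646 (control) with the deposited table, and 3948 and 4044 on the SJW diet with the red channel alone. Against saline tissue median centring gave 4146 and 2645 (SJW, 3560 and 5868 with loess) and 6598 and 2992 (control, 3449 and 5118 with loess). AOM against saline, with 296 calls on the SJW diet and 152 on the control diet, ranged from 0 to 600 and from 7 to 562 over all settings. The causes of these changes were not tested.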
